A study of Mus musculus with 12 samples.

Results

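The Maf and Bach genes encode basic leucine zipper transcription factors, relatives of Fos and Jun. The 8 genes Maff, Mafk, Mafg, Maf, Mafa, Nrl, Bach1 and Bach2 were found by symbol among the RefSeq genes of GRCm38.p6 (the assembly behind mm10), which held 21523 protein-coding genes on the 20 chromosomes used. c-Fos peaks were assigned to a gene when their midpoint lay inside it or within 100 kb of it, which gave 6 of 3294 peaks. Peaks came from CUT&RUN, in which an antibody guides a nuclease to release the bound DNA for sequencing. The 12 samples formed 4 groups of 3 replicates: c-Fos and IgG antibody after kainic acid, and c-Fos and IgG antibody after PBS. All mice were C57BL/6 with the genotype CaMK2a-Cre/+; LSL-Sun1-GFP/+, aged 3 to 4 weeks, and tissue was taken 2 to 3 h after PBS or after kainic acid, which activates glutamate receptors and triggers intense neuronal firing. Nuclei came from the CA1 region of the hippocampus and were sorted by the Sun1-GFP tag, which marks cells in which CaMK2a-Cre is or was active, with 50000 nuclei per reaction. The labels do not say how many animals made up a replicate.

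The values used here were the chromosome, start and end of each replicated peak of c-Fos against IgG after kainic acid. This 1 list carries no score, no read depth and no value per library. No spread between replicates could be given, no test over samples was possible, and all counts below are descriptions of this list. Peaks or read values after PBS were not analysed here, so a change with kainic acid was not examined. The list holds no expression, so the sorted cell type could not be checked by RNA. Peaks lay inside or within 100 kb of 2 of 5 pyramidal neuron markers, 3 of 3 interneuron markers and 3 of 8 glial markers, against 21.8% of all protein-coding genes. The pyramidal markers with a peak were Slc17a7 and Neurod6, and the list had none within 100 kb of Camk2a, Neurod2 or Nrgn. The interneuron markers were Gad1, Gad2 and Slc32a1, which encode enzymes of GABA synthesis and the vesicular GABA transporter. The glial markers with a peak were Mbp, Mog and Cx3cr1, and Aqp4, Gfap, Aldh1l1, C1qa and P2ry12 had none. A peak beside a gene does not measure its expression, and the part of other cells in the peaks below was not tested.

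Small Maf proteins (MafF, MafK, MafG) consist of little more than the DNA-binding and dimerisation region and lack a transactivation domain. As homodimers they repress, with CNC partners such as Nrf2 they activate antioxidant genes, and with Bach1 or Bach2 they repress the same genes. The large Maf proteins (c-Maf, MafA, Nrl) carry their own activation domain and direct cell fate in lens, T cells, pancreatic beta cells and rod photoreceptors. Maf proteins bind the Maf recognition element (MARE), which has an AP-1 element (TGACTCA) or a cyclic AMP response element (CRE, TGACGTCA) at its core, and can also pair with Fos.

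The sequences that bear on the peaks are the promoter windows of the small Maf genes, since 1 peak lay over the middle of the 3 listed starts of Maff. RefSeq windows (GRCm38.p6) reach from 250 bases before to 50 bases after a transcript start, and were listed for 6 of the 8 genes. The 3 windows of Maff are shown with those of Mafk, whose peak lay farther inside the gene, and Mafg, which had no peak. They are written 5′ to 3′ on the strand of the gene. Capitals mark matches, on either strand, to any of 6 motifs. These were TGACTCA, TGACGTCA, the T-MARE and C-MARE, which add TGC before and GCA after either element, their outer part TGCTGAC, and the core of the antioxidant response element TGACNNNGC. The T-MARE and C-MARE contain the shorter motifs.
Maff window 1, chr15:79346371-79346670, strand plus: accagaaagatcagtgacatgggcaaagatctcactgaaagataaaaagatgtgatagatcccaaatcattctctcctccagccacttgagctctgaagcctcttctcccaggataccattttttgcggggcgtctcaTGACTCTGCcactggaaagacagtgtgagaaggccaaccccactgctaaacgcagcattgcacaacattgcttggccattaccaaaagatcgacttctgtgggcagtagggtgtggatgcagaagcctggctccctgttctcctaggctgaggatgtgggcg
Maff window 2, chr15:79347270-79347569, strand plus: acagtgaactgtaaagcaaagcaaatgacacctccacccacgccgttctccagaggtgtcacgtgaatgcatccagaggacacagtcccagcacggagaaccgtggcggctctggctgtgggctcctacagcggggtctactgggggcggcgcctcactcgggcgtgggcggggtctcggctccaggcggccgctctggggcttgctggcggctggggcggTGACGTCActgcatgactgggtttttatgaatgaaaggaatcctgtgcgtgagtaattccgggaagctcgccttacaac
Maff window 3, chr15:79348152-79348451, strand plus: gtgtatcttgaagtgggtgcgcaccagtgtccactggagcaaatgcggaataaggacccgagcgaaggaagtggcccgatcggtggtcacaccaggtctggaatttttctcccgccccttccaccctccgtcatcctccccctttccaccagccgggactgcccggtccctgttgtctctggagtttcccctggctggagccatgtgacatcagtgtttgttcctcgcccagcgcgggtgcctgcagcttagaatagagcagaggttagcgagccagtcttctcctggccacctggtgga
Mafk window 1, chr5:139791286-139791585, strand plus: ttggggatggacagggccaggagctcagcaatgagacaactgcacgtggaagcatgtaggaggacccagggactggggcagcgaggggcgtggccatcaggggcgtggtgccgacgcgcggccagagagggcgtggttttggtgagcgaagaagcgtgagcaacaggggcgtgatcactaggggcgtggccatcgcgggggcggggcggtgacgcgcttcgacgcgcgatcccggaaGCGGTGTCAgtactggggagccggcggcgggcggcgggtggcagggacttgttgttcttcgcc
Mafg window 1, chr11:120633498-120633797, strand minus: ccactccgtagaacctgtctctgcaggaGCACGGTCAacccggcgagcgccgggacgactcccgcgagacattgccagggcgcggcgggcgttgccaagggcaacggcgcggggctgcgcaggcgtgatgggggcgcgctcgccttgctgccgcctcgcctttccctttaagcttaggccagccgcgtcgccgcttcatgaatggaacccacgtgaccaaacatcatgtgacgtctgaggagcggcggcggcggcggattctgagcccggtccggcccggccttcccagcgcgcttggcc

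Of the 8 genes, 4 had a c-Fos peak (50%), namely Maff, Mafk, Maf and Bach2, against 21.8% of all protein-coding genes (4694 of 21523). These genes and the lists of related genes below were chosen with earlier results of these data known. Their shares are therefore no test against the share of all genes. Small Maf genes had a peak in 2 of 3 cases, large Maf genes in 1 of 3 and Bach genes in 1 of 2. In 3 of the 8 genes a peak midpoint lay inside the gene (Maff, Mafk and Bach2), against 5.52% of all protein-coding genes (1187). Mafg, Mafa, Nrl and Bach1 had no peak in the window, and their nearest peaks were 454 to 1053 kb away. For all 6 peaks the Maf or Bach gene was the nearest protein-coding gene. When genes of every type were counted, the nearest was Maff, Mafk or Bach2 for the 3 peaks inside these genes, and a long non-coding RNA gene or a pseudogene for the other 3.

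**Figure D1:**
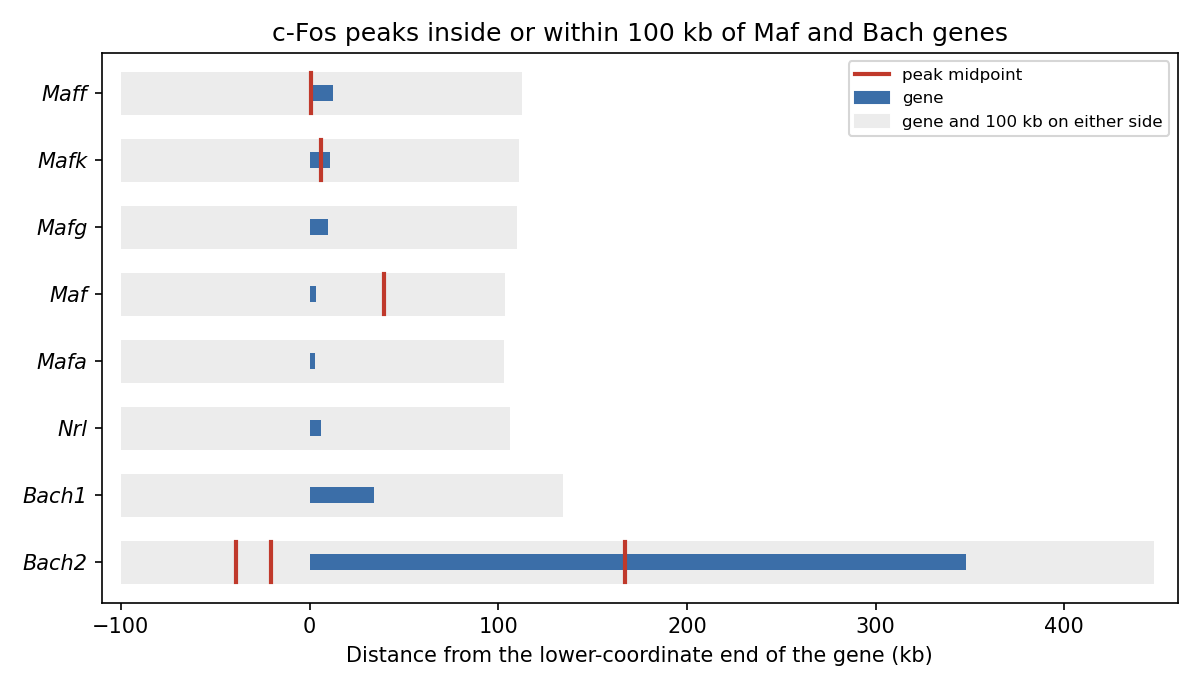
c-Fos peak midpoints (red) around the 8 genes. The horizontal axis is the distance in kb from the end of the gene with the lower coordinate, the blue bar is the gene and the grey bar the gene with 100 kb on either side. Maff, Mafk and Maf have 1 peak each and Bach2 has 3, while Mafg, Mafa, Nrl and Bach1 have none.

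Maff (chromosome 15, 79346621 to 79359078, plus strand, 12.5 kb) had 1 peak at chr15:79346704-79348159, 1456 bp wide. It lay near the 5′ end of the gene. Of the 3 listed transcript starts, the peak spanned the middle one, at position 79347520, with its midpoint 88.5 bp upstream of it. The whole of window 2 lay within the peak, 8 bases of window 3 did, and window 1 ended before the peak began. Promoter windows wholly within a peak were rare in the list, with 298 of 32619 (0.914%). The first listed start lay 83 bp before the peak and the third 243 bp beyond it.

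Window 2 of Maff held a full CRE, TGACGTCA, from 29 to 22 bases upstream of the transcript start (chr15:79347491-79347498), 63 bp from the peak midpoint. CRE is the element of CREB and ATF factors and is also bound by some AP-1 dimers. Among promoter windows wholly within peaks, 24 of 298 held it (8.05%), against 563 of 32281 windows that no peak touched (1.74%). These sets of windows were not matched for G and C content, and its part in the shares of motifs was not tested. Window 2 held no AP-1 element TGACTCA, which was present in 50 of the 298 windows within peaks (16.8%) and in 5.12% of untouched windows. Window 2 covers 300 bases of a peak 1456 bp wide. The peak outside the promoter windows was not searched, so an AP-1 element elsewhere in it would not be seen. Window 1, outside the peak, held a match to TGACNNNGC, a short pattern found in 12.4% of all windows, and window 3 held none of the 6 motifs. These matches describe letters in the windows and were not tested for binding.

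**Figure D2:**
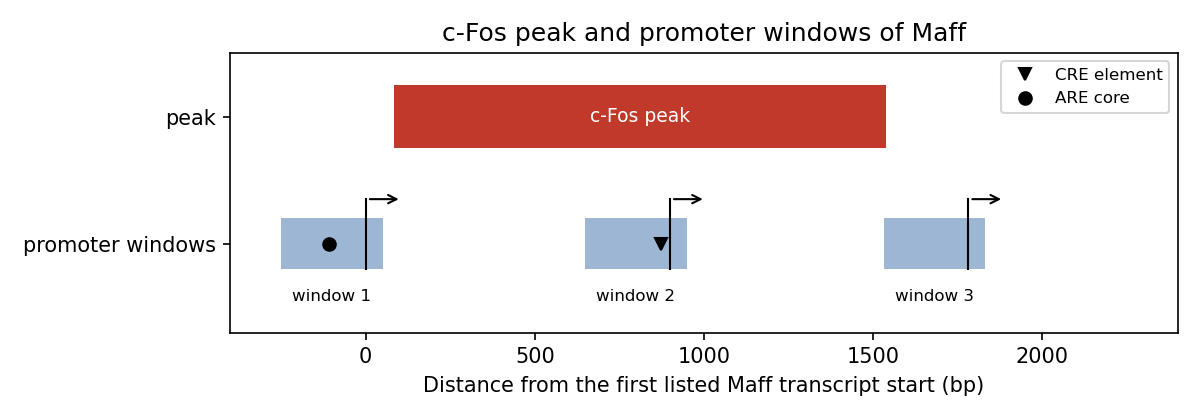
The c-Fos peak (red) and the 3 promoter windows (blue) of Maff, by distance in bp from the first listed transcript start. Arrows mark transcript starts, the triangle the CRE and the circle the TGACNNNGC match. The peak covers all of window 2, with the CRE, and 8 bases of window 3.

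Mafk (chromosome 5, 139791536 to 139802653, plus strand, 11.1 kb) also had 1 peak inside the gene, at chr5:139796603-139798319, 1717 bp wide. Its midpoint lay 5.93 kb downstream of the listed transcript start and 5.19 kb from the opposite end, near the middle of the gene. The Mafk promoter window shown above was outside the peak and held a TGACNNNGC match and neither a CRE nor an AP-1 element. Maff and Mafk are short genes. Among genes of 0.5 to 2 times their length, 1.74% (Maff, 7283 genes) and 1.57% (Mafk, 7050 genes) had a peak midpoint inside, and 18.6% and 18.3% had one inside or within 100 kb.

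Both peaks had a gene of the TMEM184 family next to them. The next protein-coding gene to the Maff peak was Tmem184b, 13.3 kb from its midpoint, and the next to the Mafk peak was Tmem184a, at 7.49 kb. These paralogues encode transmembrane proteins. Pla2g6, which encodes a calcium-independent phospholipase A2, followed at 19.0 kb from the Maff peak, and Ints1, which encodes a subunit of the Integrator complex, at 21.8 kb from the Mafk peak. The Maff peak had 6 other protein-coding genes in reach of 100 kb and the Mafk peak had 4, so that neither peak can be tied to 1 gene by position alone. The next peak was 423 kb from the Maff peak and 242 kb from the Mafk peak, midpoint to midpoint.

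Mafg (chromosome 11, 120625117 to 120634955, minus strand), the other small Maf gene, had no peak in the window. The nearest peak midpoint was 634 kb away on the side of lower coordinates, and 67.4% of protein-coding genes had a nearer one. Mafg sits among many genes, and none of the 19 protein-coding genes within 100 kb of it had a peak inside or within 100 kb. Its listed window held a TGACNNNGC match and none of the other 5 motifs.

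Among the large Maf genes only Maf, which encodes c-Maf, had a peak in the window. Maf (chromosome 8, 115703253 to 115706894, 3.64 kb) had it at chr8:115742034-115743435, 1402 bp wide, 35.8 kb from the gene on the side of higher coordinates. Maf stands alone in its neighbourhood. No other protein-coding gene lay within 100 kb, and the next one, Wwox, which encodes a WW domain oxidoreductase, was 390 kb from the peak. The long non-coding RNA gene Gm30712 lay closer to this peak than Maf, at 12.7 kb. Of all protein-coding genes, 11.7% had a nearer peak than Maf.

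Mafa, an activator of the insulin gene in pancreatic beta cells, and Nrl, which directs rod photoreceptor fate, had their nearest peaks far away. For Mafa (chromosome 15, 75745501 to 75748321) it was 1053 kb away, and 82% of protein-coding genes had a nearer peak. For Nrl (chromosome 14, 55518978 to 55524981) it was 643 kb away, and 67.8% had a nearer one. Neither the 3 protein-coding genes within 100 kb of Mafa nor the 12 around Nrl had a peak inside or within 100 kb.

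Bach2, a repressor known for its roles in B and T lymphocytes, had 3 peaks, against 1.6% of all protein-coding genes with 3 or more (345 genes). Bach2 (chromosome 4, 32238413 to 32586109, plus strand) spans 348 kb, and long genes have more room for peaks. Among 1061 genes of 0.5 to 2 times its length, 48.7% had a peak inside or within 100 kb, 36.2% had a midpoint inside and 8.86% had 3 or more. The nearest to the gene of the upstream pair, at chr4:32216626-32219271, was 20.5 kb before the annotated 5′ end, and the other, at chr4:32198752-32199810, was 39.1 kb before it. Their midpoints were 18.7 kb apart.

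The third Bach2 peak, at chr4:32404937-32406163 and 1227 bp wide, lay inside the gene, 167 kb from its 5′ end. The listed transcript start of Bach2, at position 32417435, is not at the outer end of the annotated gene, and the midpoint of this peak was 11.9 kb upstream of that start. The promoter window at that start lay outside every peak and held none of the 6 motifs. No other protein-coding gene was in reach of 100 kb of any of the 3 peaks. The next ones were Map3k7, which encodes the kinase TAK1, at 176 and 194 kb from the upstream peaks, and Gja10, a gap junction gene, at 195 kb from the peak inside Bach2.

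Bach1, the haem-regulated repressor of Hmox1, had no peak in the window, unlike Bach2. Bach1 (chromosome 16, 87698954 to 87733346, plus strand, 34.4 kb) had its nearest peak 454 kb away, and 56.9% of protein-coding genes had a nearer one. It had no protein-coding neighbour within 100 kb. Of 7187 genes of 0.5 to 2 times its length, 22.2% had a peak inside or within 100 kb. The Bach1 window held none of the 6 motifs.

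By distance to the nearest peak, the order was Maff, Mafk and Bach2 (inside), Maf, Bach1, Mafg, Nrl and Mafa. The median over all protein-coding genes was 360.5 kb, between Maf and Bach1. Mafg and Nrl were close to each other in this measure, and without replicate values no error can be set on their order. In the gene and 1 Mb on either side, Mafk had 2.49 peaks per Mb, Maff 1.99, Bach2 1.70 and Maf 1.50, counting their own peaks. Over the same span Nrl had 0.997, Bach1 0.983, Mafg 0.498 and Mafa none, against 1.28 per Mb over the 20 chromosomes. Without their own peaks the values were 1.99 for Mafk (4 peaks), 1.49 for Maff (3), 0.998 for Maf (2) and 0.426 for Bach2 (1). Values with own peaks are raised by the peaks through which these genes were counted. Values without them are lowered, since the span was kept whole and no peak was taken from the level of the 20 chromosomes. Neither can therefore be ranked against that level.

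The 6 peaks were of ordinary width. Their median was 1429 bp (1059 to 2646 bp), against 1341 bp for the other 3288 peaks (299 to 18691 bp). The Bach2 peak 20.5 kb upstream was the widest of them at 2646 bp, and 95.4% of all peaks were narrower. Its neighbour 39.1 kb upstream was the narrowest at 1059 bp, with 21.3% of all peaks narrower. The peaks of Maff, Mafk and Maf ranked between them, at 60.2%, 75.7% and 55.5%. Width depends on how peaks were called and was not read as binding strength.

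**Figure D3:**
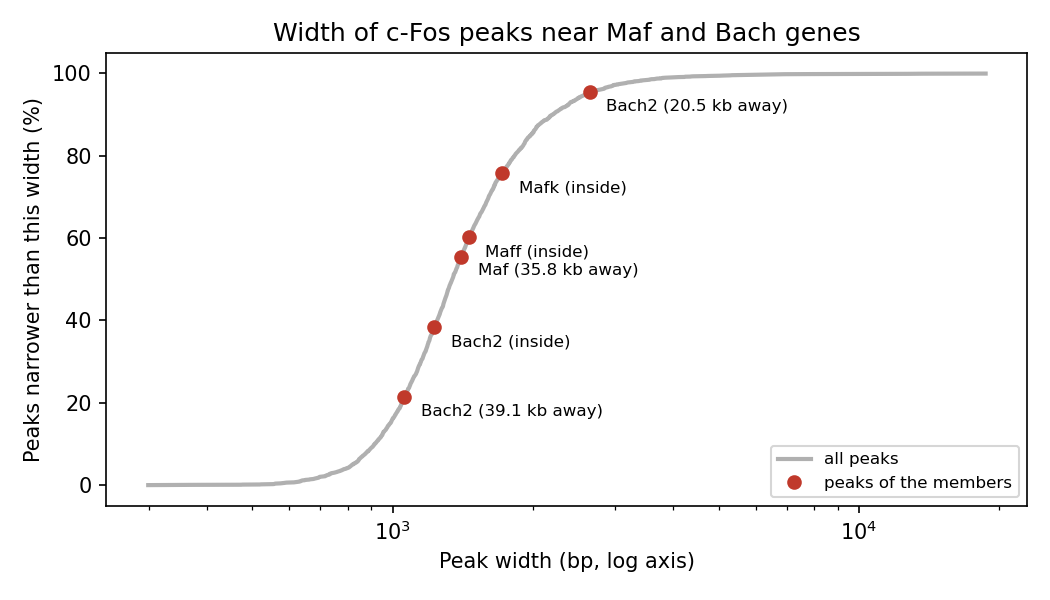
Width of the 6 peaks (red points) on the cumulative curve of all 3294 peaks (grey). The horizontal axis is peak width in bp on a log scale and the vertical axis the percentage of peaks that are narrower. The points run from 1059 bp (Bach2, 39.1 kb away) to 2646 bp (Bach2, 20.5 kb away).

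Genes that work with Maf and Bach factors were counted with the same link. Of 5 genes of the CNC pathway, 4 CNC factors and Keap1, 1 had a peak (20%), near the 21.8% of all protein-coding genes. This was Nfe2l2, which encodes Nrf2, the main activator of antioxidant genes, with a peak at 90.2 kb. Another protein-coding gene was nearer to that peak. Nfe2l2 had no peak with a 50 kb window, or when only peaks of at least median width were used. Nfe2, Nfe2l1, Nfe2l3 and Keap1, the inhibitor of Nrf2, had none. Of 12 AP-1 genes of the same protein class, 6 had a peak (50%), as many in proportion as the Maf and Bach genes, against the same 21.8%. Fos and Jun had 2 peaks each, Atf3 also 2, and Junb, Fosl2 and Batf3 1 each. The equal proportion also held with any overlap of peak and window, with merging of peaks within 500 bp and with gene ends only. It did not hold with windows of 10, 50 or 200 kb, with wider peaks alone or with the nearest gene only. With only the nearest protein-coding gene counted, 4 of the 12 AP-1 genes had a peak, without Junb and Batf3. The Maf and Bach genes with a peak were then 4 of 8, against 8.63% of all protein-coding genes. With a 10 kb window the counts were 3 of 12 and 3 of 8, against 7.55%. Fosl2, encoding Fra-2, was like Maff in having its listed promoter window wholly within a peak, and that window held none of the 6 motifs.

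Among 18 genes known as targets of Bach and CNC-small Maf dimers, 5 had a peak (27.8%), near the 21.8% of all protein-coding genes. Blvrb, which encodes biliverdin reductase B, had 2 peaks. The nearest (chr7:27446685-27448541) had its midpoint 365 bp outside the gene and reached into it, past the lower end of the gene at 27447978. Of the 2 listed promoter windows of Blvrb, 1 lay wholly within a peak without a motif match. All distances here are from peak midpoints. Srxn1, encoding sulfiredoxin, had a peak at 3.49 kb (chr2:152100754-152103310), and Prdx1, encoding peroxiredoxin 1, at 8.29 kb. Fth1, the ferritin heavy chain gene, had one at 34.3 kb and Txnrd1, encoding thioredoxin reductase 1, at 78.5 kb. Another protein-coding gene was nearer to the peaks of Blvrb, Prdx1 and Txnrd1, and with only the nearest gene counted 2 of the 18 had a peak, Srxn1 and Fth1. The haem oxygenase gene Hmox1 had its nearest peak 976 kb away. Nqo1, Gclc, Gclm, Slc7a11 and the other 8 genes of the list had none in the window. None of the 8 listed windows of Maf and Bach genes held a T-MARE or a C-MARE, and of the 32619 windows 1 held a T-MARE and 0 a C-MARE.

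**Figure D4:**
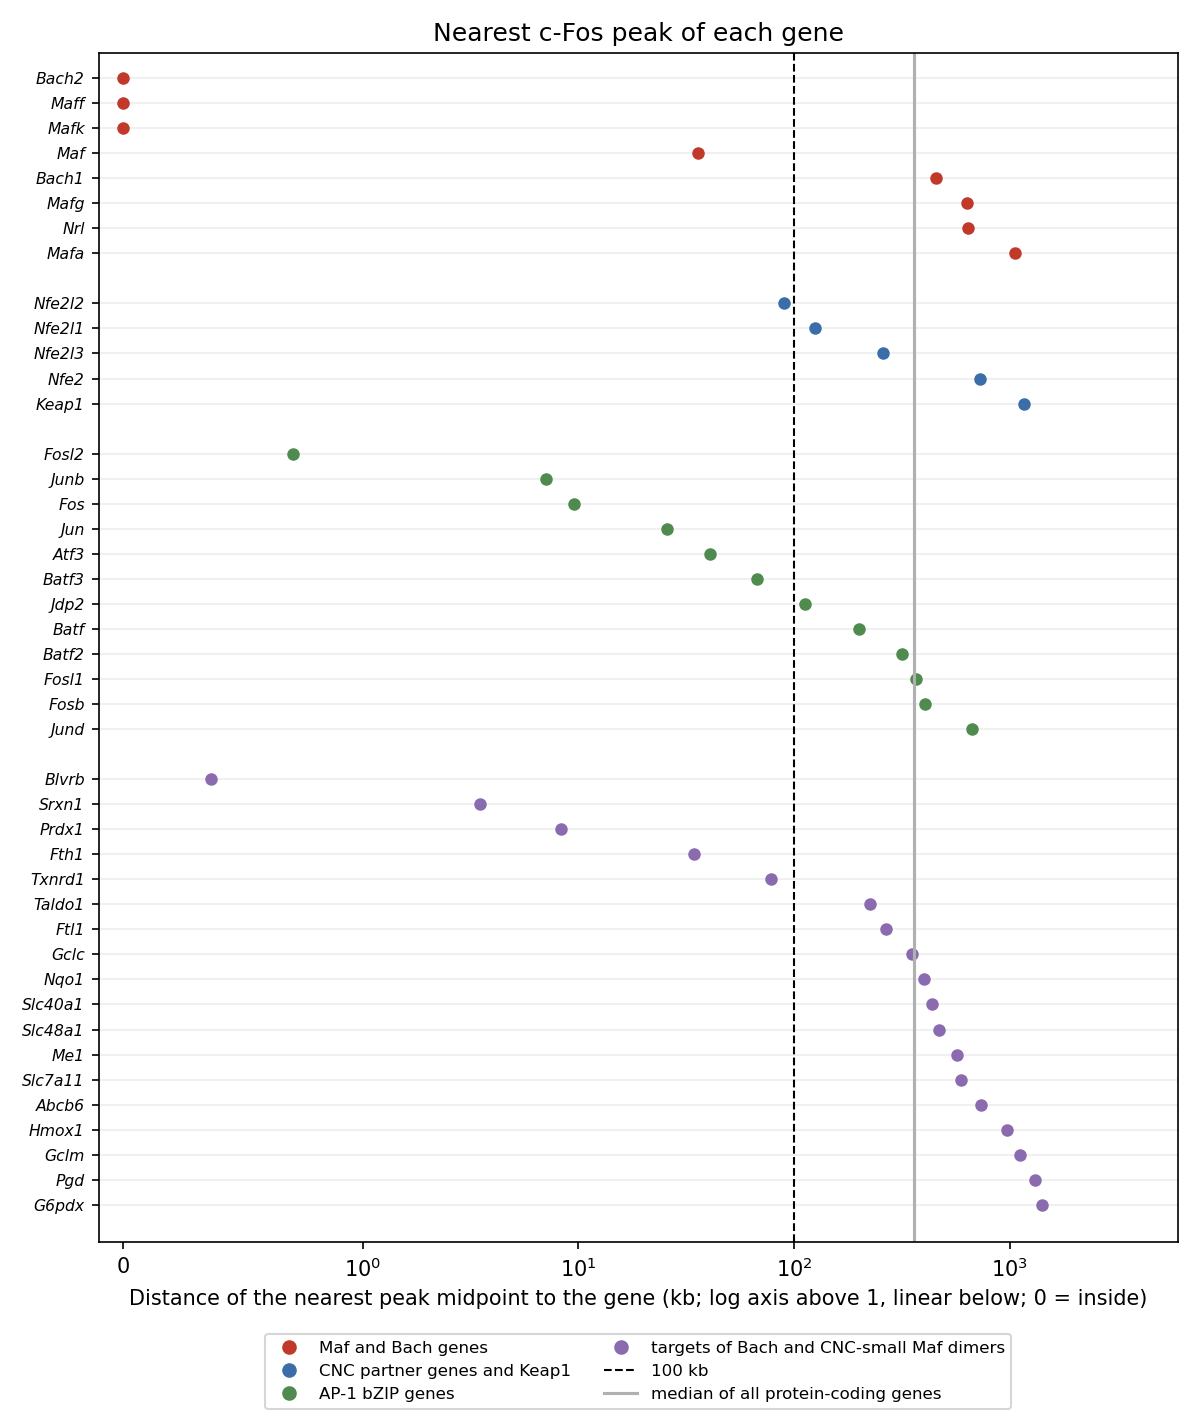
Distance in kb from each gene to the midpoint of its nearest c-Fos peak (0 means inside the gene), on an axis that is logarithmic above 1 kb. Maf and Bach genes are at the top, with the 3 lists of related genes under them, and lines mark 100 kb and the median of all protein-coding genes, 360.5 kb. Bach2, Maff and Mafk are at 0, where no gene of the other lists lies by peak midpoint. The nearest peaks of Blvrb and Fosl2 have midpoints 0.365 and 0.707 kb outside these genes, but both peaks reach into them.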

How the data were processed

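CUT&RUN libraries of c-Fos and IgG were made in 4 groups of 3, grouped by the sample labels. The submitters' processing notes name SEACR 1.1, bedtools 2.27.1, Bowtie2 2.2.9 and Trimmomatic 0.36, and the builds sacCer3 and mm10, without roles or settings. The authors deposited 1 peak list of 3 columns (chromosome, start, end) for c-Fos against IgG after kainic acid, with no score; the rule for combining replicates and the peak threshold are not stated, weaker peaks are therefore not counted, and read depth is unknown. The list was taken as one of the whole group.

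Of 3295 peaks, 3294 on 19 autosomes and X were used, with 1-based positions. Of 49997 RefSeq genes, 340 on these chromosomes that started below position 3000000 were left out. A peak was linked to every protein-coding gene within 100 kb of its midpoint. Promoter sequences came from RefSeq (GRCm38.p6) and were searched on both strands; a motif search in peaks and a protein comparison were planned and not run here. The links and the motif search were tested on simulated peaks and sequences (Python 3.11.15, pandas 2.3.3). Some genes of the lists are not reported here. Members and lists were chosen with earlier results of these data known. Text names all members, list genes with a peak and the nearest protein-coding genes; the next gene to each peak, some list genes without one, the length classes, the 1 Mb densities and the promoter overlap were added after the positions were seen. Alternatives were other windows (10, 50 and 200 kb), any overlap, wider peaks, merging within 500 bp, gene ends only, the nearest gene only and all gene types.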

Additional observations from a re-analysis of the deposited data

How the results depend on the processing

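No paired analysis was possible because the deposited peaks are 1 combined list, and for the same reason no replicate could be left out. The number of genes of the group with a peak was 4 in 7 of 8 alternatives and 3 with a 10 kb window, against 7.55% of all protein-coding genes there. The share of all protein-coding genes over the other alternatives ran from 8.63% (nearest gene only) to 34.4% (200 kb window), so the same count of 4 stands against different backgrounds. With the 10 kb window the peaks near the group were 3 and not 6, and the related genes with a peak 6 and not 12, since fewer peaks are in reach. The related genes were also 6 when only the nearest protein-coding gene was counted, and the Maf and Bach genes with a peak were 4 there. With all gene types as candidates, 3 of the 6 peaks had a Maf or Bach gene as nearest. Wider peaks alone left 4 peaks, at 4 genes. Of 184 counts for single genes and lists, 148 stayed within 1.5 times and 36 did not. The 148 include Mafg, Mafa, Nrl and Bach1, which were at 0 in every setting. They also include all counts with any overlap and with merging within 500 bp, which moved none. The 148 are therefore no measure of how firm the other counts are.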
